A study of Mus musculus with 30 samples.

Results

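Genes of skeletal muscle were followed through the developing olfactory tissue of mouse embryos. Of 10 genes listed, 9 had a transcript cluster with a single gene symbol in the platform's gene table, 1 cluster each, out of 14860 genes measured in that way. A transcript cluster gathers the probes that lie along the exons of a gene. Tnnt1, a slow skeletal troponin T, had no cluster under a single symbol and was not analysed here. The 9 genes were Myf5, Myod1 and Myog, transcription factors of the muscle lineage; Myl1, Tnnc1 and Acta1, proteins of the contractile apparatus; Des, an intermediate filament; Chrna1, a receptor subunit; and Mstn, a secreted ligand.

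Skeletal muscle forms when precursors of mesodermal origin become myoblasts under Myf5 and Myod1, leave the cell cycle as Myog comes on, fuse, and assemble sarcomeres. The basic helix-loop-helix factors bind a short sequence named the E-box, and they work together with factors of the MEF2 family. In the head, muscle lies in the mesenchyme. The sensory epithelia of the nose are not known as a site where muscle forms.

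Total RNA of pooled, hand-dissected tissue was hybridized on 30 Affymetrix Mouse Exon 1.0 ST arrays, 3 per group. The time course holds 24 arrays of wild-type embryos: the epithelial fraction (EPI) and the mesenchyme beside it (MES) were separated by hand at each of 4 sites. These were OPL E11.5, the olfactory placode; OE E12.5 and OE E14.5, the olfactory epithelium; and VNO E14.5, the vomeronasal organ, which detects pheromones. The E12.5 tissue is labelled as placode, and the name OE follows the methods. The other 6 arrays compare wild-type and Dlx5 KO tissue at E12.5, the mutant carrying the lacZ null allele, and are given no fraction in the labels. All embryos, mutants included, are labelled as F1 of a C57Black6 x DBA cross. For the mutants the whole epithelial lining of the nasal cavity was taken, so that genotype and dissection cannot be told apart. By the labels a pool held 4 embryos or more, and by the methods 15 embryos or more were used for each age. Whether pools shared litters is stated in neither, and the p-values below cover only pool-to-pool spread. In such bulk tissue, fewer muscle cells and less RNA per muscle cell cannot be told apart.

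Values are RMA levels on the log2 scale, as deposited, in which 1 unit is a doubling. Levels are compared between groups for the same gene and not between genes. The medians of the arrays differed between groups of the time course, from 6.41 in the EPI OPL E11.5 to 7.17 in the MES OE E12.5, so results are given with quantile-normalized values wherever these change a call. Pearson's r between replicate arrays lay between 0.963 and 0.990 across clusters, which are not independent replicates, and was lowest in the EPI OE E14.5. Differences were tested by limma on the 6 arrays of a pair, with Benjamini-Hochberg adjustment over all clusters. To be called, a gene needed an adjusted p no higher than 0.05 together with a log2 difference whose size reached 0.9.

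The names EPI and MES were checked against markers. Of 17 measured epithelial genes, 6 were called higher in the EPI than in the MES at the OPL E11.5 and 2 lower, 9 and 2 at the OE E12.5, 4 and 0 at the OE E14.5, and 5 and 1 at the VNO E14.5. Of all genes, 0.804%, 2.45%, 0.905% and 2.74% were called higher at these 4 sites, and 5.25% were called lower at the VNO E14.5. Of 13 mesenchymal genes, 11, 5 and 3 were called lower in the EPI at the first 3 of these sites, where 25.6%, 3.5% and 6.44% of all genes were. At the VNO E14.5 none was lower and Dcn, a matrix proteoglycan, was higher. Of 14 genes of olfactory neurons, 5 were higher in the EPI at the OPL E11.5 and 2 lower (Adcy3 and Ebf1), 5 were higher and none lower at the OE E12.5, none was called at the OE E14.5 by limma, while at the VNO E14.5 none was higher and 3 were lower (Ebf2, Lhx2 and Dcx). After quantile normalization, 10, 10, 7 and 5 epithelial genes were higher in the EPI at the 4 sites, with 2 lower at the OE E12.5 only. Of all genes, 3.99% were then called higher at the OPL E11.5, 490 of 14804 at the OE E12.5, 6.83% at the OE E14.5 and 6.69% at the VNO E14.5. Mesenchymal genes called lower were then 6, 3 and 2 at the first 3 sites, against 1.28%, 1.94% and 1.34% of all genes. Neuronal genes called higher were then 6, 6, 2 and 0. At the VNO E14.5 only, 3 were lower (Ebf2, Lhx2 and Ncam1), where 279 of all 14804 genes were lower. The neuronal and mesenchymal markers thus did not set the EPI VNO apart from the MES VNO in the way its label says, and EPI VNO below means the fraction of that label.

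The promoters of Myog and of 3 effector genes are shown because E-boxes are the sites that the lineage factors among the 9 genes bind, and because these 4 windows differ in the E-boxes they hold. Sequences are RefSeq windows of the GRCm38.p6 build, from 250 bases before to 50 bases after the annotated start, written 5′ to 3′ along the gene. The array annotation names mm9, so these positions are not those of the probes. Capitals mark E-boxes (CANNTG) and, in Acta1, also the CArG box, a site for serum response factor.
Myog (chr1:134289754-134290053, plus strand): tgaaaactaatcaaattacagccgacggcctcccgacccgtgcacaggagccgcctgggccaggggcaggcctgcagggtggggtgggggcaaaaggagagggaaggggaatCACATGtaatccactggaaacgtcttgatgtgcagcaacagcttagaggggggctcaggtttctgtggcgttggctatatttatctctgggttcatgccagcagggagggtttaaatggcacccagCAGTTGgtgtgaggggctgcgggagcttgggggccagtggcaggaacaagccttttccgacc
Chrna1 (chr2:73580289-73580588, minus strand): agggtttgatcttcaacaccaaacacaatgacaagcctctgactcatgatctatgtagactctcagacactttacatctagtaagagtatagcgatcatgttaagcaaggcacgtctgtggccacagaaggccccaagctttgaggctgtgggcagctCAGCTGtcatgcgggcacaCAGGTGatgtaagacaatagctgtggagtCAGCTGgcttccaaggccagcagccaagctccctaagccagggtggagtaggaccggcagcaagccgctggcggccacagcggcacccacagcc
Des (chr1:75360042-75360341, plus strand): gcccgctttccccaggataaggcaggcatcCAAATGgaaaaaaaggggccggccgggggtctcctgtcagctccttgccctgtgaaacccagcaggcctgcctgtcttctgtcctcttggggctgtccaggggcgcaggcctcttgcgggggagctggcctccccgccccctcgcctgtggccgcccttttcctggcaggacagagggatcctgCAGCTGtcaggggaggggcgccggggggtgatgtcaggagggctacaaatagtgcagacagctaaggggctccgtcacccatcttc
Acta1 (chr8:123894726-123895025, minus strand): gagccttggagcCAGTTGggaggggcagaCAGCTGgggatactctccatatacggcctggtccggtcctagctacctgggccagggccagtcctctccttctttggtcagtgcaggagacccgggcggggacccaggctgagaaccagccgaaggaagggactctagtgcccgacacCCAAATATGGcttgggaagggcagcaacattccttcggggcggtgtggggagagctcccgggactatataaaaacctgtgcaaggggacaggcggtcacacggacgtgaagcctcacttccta
Of the 9 measured genes, 8 had a window in the table. Myod1 had none there. The E-box CANNTG, which reads as an E-box on both strands, was found in 7 of the 8 windows, against 72.3% of all 32851 windows in the table. The palindromic form CAGCTG, a subset of the former, was found in 4 of 8 (Acta1, Chrna1, Des and Myl1), against 16.3% of all windows. It began 36 bases before the start in Des, 92 and 44 bases before it in Chrna1, 221 bases before it in Acta1 and 224 bases before it in Myl1. The CArG box was found in Acta1, 73 bases before the start, and in no other of the 8 windows (1.63% of all windows). The MEF2 motif was searched in 1 strict form, CTAWWWWTAR, where W is A or T and R is A or G. That form was found in 0 of the 8 windows, against 1.86% of all windows. Looser forms were not searched. The Myog window holds ctatatttat, which departs from the strict form in its last base. Myf5 held neither an E-box nor a CArG box. A match is a description of the sequence, not a site shown to be bound.

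**Figure D1:**
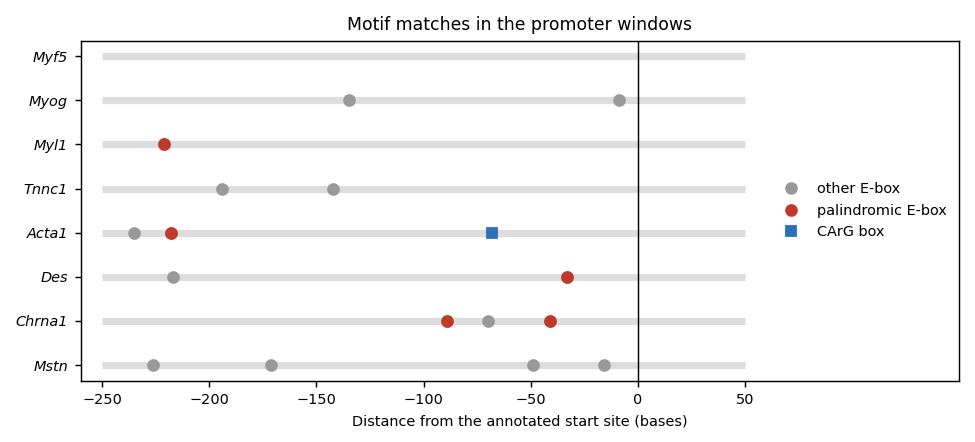
Positions of motif matches in the 8 promoter windows, by distance in bases from the annotated start site, with each grey bar spanning the window. The palindromic E-box is seen in Chrna1, Des, Acta1 and Myl1, the CArG box in Acta1, and no match in Myf5.

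Muscle genes were highest in 1 group. The EPI VNO E14.5 had the highest mean of the 8 time-course groups for all 9 genes, and for none of them did its 3 arrays overlap those of the next group. The level of the 9 genes summed on the linear scale lay between 11.22 and 11.41 (log2) on these 3 arrays. The next highest range was 9.47 to 9.73, in the EPI OE E14.5, and the MES at E14.5 lay at 9.37 to 9.48 around the OE and 9.29 to 9.41 around the VNO. The lowest range was 7.80 to 7.91, in the EPI OPL E11.5. How many of all genes were highest in the EPI VNO E14.5 without overlap is not given here. By pairs, 24.9% of all genes were higher without overlap in the EPI VNO than in the MES VNO. Against the EPI OE E14.5 that share was 32.0%.

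**Figure D2:**
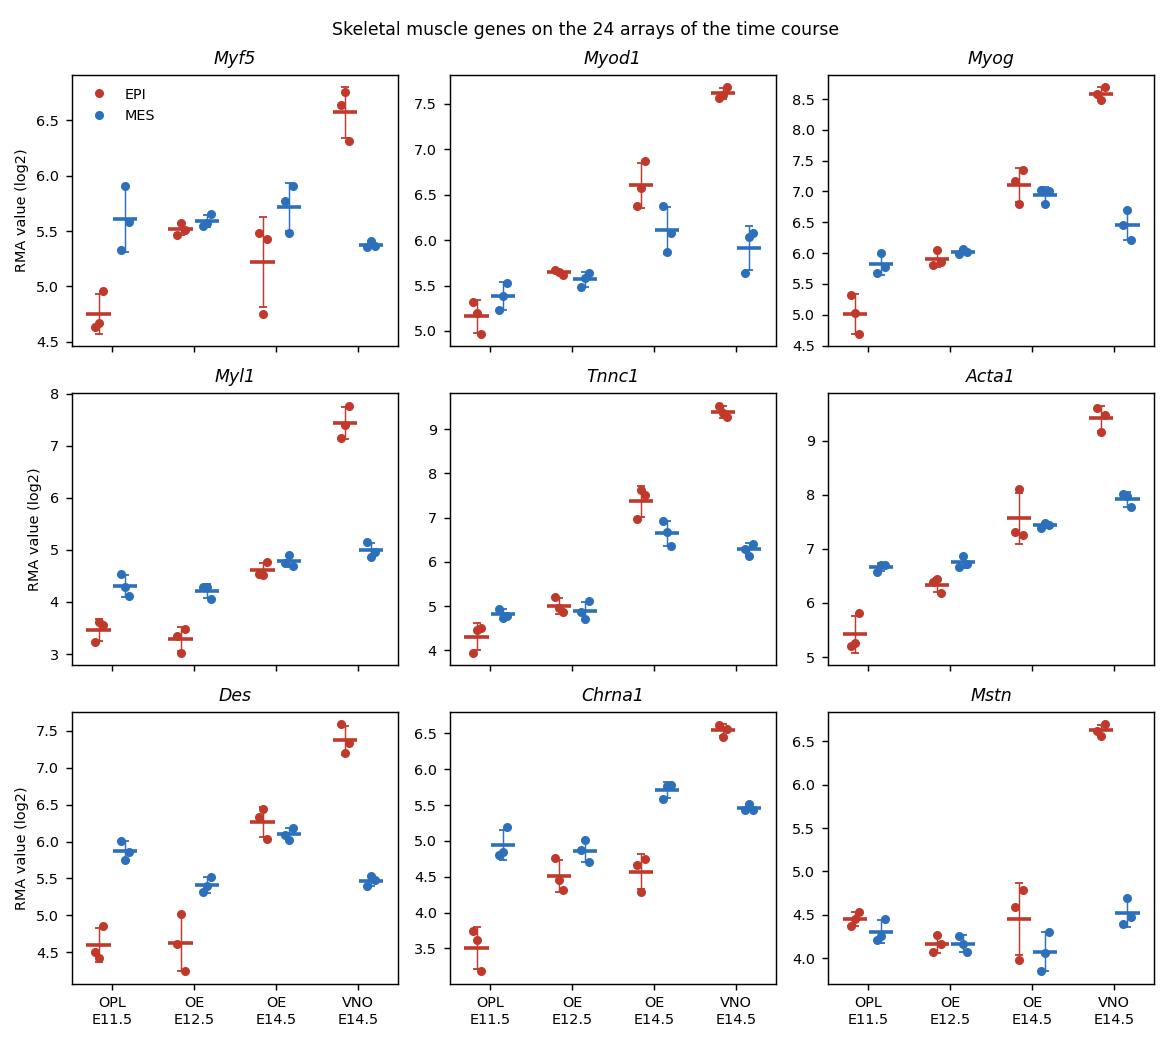
RMA levels (log2) of the 9 genes on each array of the time course, by tissue and age, with EPI in red and MES in blue. Points are arrays, horizontal bars are group means and vertical bars are standard deviations (n = 3). In every panel the 3 EPI VNO E14.5 points lie above all others, at 6.31 to 6.76 for Myf5 and at 9.27 to 9.53 for Tnnc1.

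The lineage factors are described first. Myog (cluster 6753268), which drives myoblasts into differentiation, read 8.58, 8.48 and 8.70 on the 3 EPI VNO E14.5 arrays and 6.46, 6.70 and 6.22 on those of the MES VNO E14.5. The EPI arrays were all higher, by 2.13 (standard error 0.14, adjusted p = 0.000493, limma), which is 4.38-fold. The EPI OE E14.5 read 7.16, 6.80 and 7.35, and the MES OE E14.5 lay between 6.79 and 7.03. These groups overlapped, and together they lay below the EPI VNO and above the MES VNO. At E11.5 the EPI OPL read 5.33, 5.02 and 4.69, the lowest group of the 8.

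Myod1 (cluster 6960454), a factor that commits cells to muscle, read 7.57, 7.60 and 7.69 in the EPI VNO E14.5 and 5.64, 6.03 and 6.08 in the MES VNO E14.5. Its difference of 1.70 was called (standard error 0.14, adjusted p = 0.000685, limma). In the EPI OE E14.5 it read 6.37, 6.57 and 6.87, against 6.38, 5.87 and 6.08 in the MES OE E14.5, and these groups overlapped. No array of the 4 groups of E11.5 and E12.5 exceeded 5.67.

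Myf5 (cluster 6776782), the first of the family to come on in the embryo, was the lineage factor with the smallest difference. It read 6.64, 6.76 and 6.31 in the EPI VNO E14.5 and 5.36, 5.41 and 5.36 in the MES VNO E14.5, a called difference of 1.19 (standard error 0.13, adjusted p = 0.0014, limma). In the EPI OE E14.5 it read 5.48, 4.75 and 5.43, and replicate 2 lay apart from the other 2 arrays.

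Among the contractile genes, Tnnc1 showed the largest difference of the 9. Tnnc1 (cluster 6817978) encodes the troponin C of slow skeletal and cardiac muscle, which binds calcium. It read 9.53, 9.36 and 9.27 in the EPI VNO E14.5, 6.30, 6.14 and 6.41 in the MES VNO E14.5, 6.98, 7.62 and 7.51 in the EPI OE E14.5 and 6.92, 6.67 and 6.36 in the MES OE E14.5. The EPI VNO stood 3.10 above its MES (standard error 0.11, adjusted p = 0.000327, limma), or 8.60-fold, and the highest array of any other group read 7.62. The EPI and MES arrays of the OE E14.5 did not overlap for Tnnc1, but the difference of 0.72 was under the minimum fold (adjusted p = 0.0487, limma). At E11.5 and E12.5 no array of either fraction exceeded 5.20.

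Myl1 (cluster 6759466), an alkali light chain of fast myosin, read 7.16, 7.40 and 7.77 in the EPI VNO E14.5, and 5.16, 4.87 and 4.95 in the MES VNO E14.5. The difference was 2.45 (standard error 0.18, adjusted p = 0.000575, limma). In the EPI OE E14.5 it read 4.55, 4.53 and 4.77, close to the 4.75, 4.89 and 4.69 of the MES OE E14.5. At E11.5 and E12.5 the EPI arrays lay between 3.03 and 3.61 and the MES arrays between 4.06 and 4.54.

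Acta1 (cluster 6986031), the skeletal muscle actin of the thin filament, read 9.60, 9.15 and 9.48 in the EPI VNO E14.5 and 8.01, 7.97 and 7.76 in the MES VNO E14.5. The difference of 1.50 was called (standard error 0.14, adjusted p = 0.00106, limma). In the EPI OE E14.5 it read 7.31, 8.11 and 7.26. Replicate 2 of that group stood apart and lay above the MES VNO arrays. The same array was the lowest of its group for Myf5, Myog, Myl1, Chrna1 and Mstn and the highest for Tnnc1 and Des. Acta1 belongs to a family of closely similar actins, and how probes shared between them were treated is not given in the sources used here. Acta2, the smooth muscle actin, had means of 11.16 in the EPI VNO E14.5 and 9.84 in the MES VNO E14.5, a called difference of 1.32.

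Des (cluster 6750625), the intermediate filament desmin, which is also made in smooth and heart muscle, read 7.59, 7.20 and 7.33 in the EPI VNO E14.5 and 5.40, 5.53 and 5.48 in the MES VNO E14.5. The EPI was higher by 1.90 (standard error 0.12, adjusted p = 0.000456, limma). In the OE E14.5 the fractions overlapped, with 6.33, 6.44 and 6.04 in the EPI and 6.09, 6.02 and 6.18 in the MES.

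Chrna1 (cluster 6887853), the subunit of the muscle acetylcholine receptor that takes part in binding the transmitter, had another order of levels. It read 6.61, 6.45 and 6.56 in the EPI VNO E14.5, then 5.58, 5.77 and 5.78 in the MES OE E14.5, then 5.43, 5.52 and 5.43 in the MES VNO E14.5. None of these groups overlapped. The EPI OE E14.5 read 4.67, 4.29 and 4.75, below every MES array of that age. Chrna1 was therefore 1.08 higher in the EPI than in the MES at the VNO (standard error 0.08, adjusted p = 0.000651, limma) and 1.14 lower at the OE (standard error 0.15, adjusted p = 0.0038, limma). After quantile normalization the first became 1.58 and was called, and the second became −0.33 and was not.

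Mstn (cluster 6749461), a ligand of the TGF-beta family that restrains muscle growth, was near flat outside the EPI VNO E14.5. Its arrays there read 6.62, 6.56 and 6.69, and the other 21 arrays of the time course lay between 3.86 and 4.78. The 3 arrays of the MES VNO E14.5 read 4.40, 4.70 and 4.47, so that the EPI was higher by 2.10 (standard error 0.11, adjusted p = 0.000348, limma). The neighbours in the order of the other 7 groups overlapped throughout.

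In the comparison of fractions at the VNO E14.5, all 9 genes were called higher in the EPI, by 1.08 to 3.10 with a median of 1.90. Of all 14804 genes tested, 2.74% were called higher there and 5.25% lower, and the median gene lay at −0.11. All 9 genes were also called after quantile normalization (by 1.56 to 3.35; 6.69% of all genes were then called higher), by Rank Products (2.0% of all genes), and with any 1 of the 6 arrays left out. The arrays of the fractions did not overlap for any of the 9, as was so, in that direction, for 24.9% of all genes.

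At the other 3 sites fewer of the 9 were called, and on the deposited values all of these were lower in the EPI. At the OE E14.5, only Chrna1 was called, as lower in the EPI (6.44% of all genes were called lower and 0.905% higher). After quantile normalization that call was lost and 3 genes were called higher in the EPI: Myod1 by 1.11, Tnnc1 by 1.18 and Mstn by 1.22 (6.83% of all genes were then higher and 1.34% lower). Tnnc1 was also called, at 0.91, without replicate 1 of the EPI. At the OE E12.5, only Myl1 was called, lower in the EPI by 0.92 (standard error 0.14, adjusted p = 0.00611, limma), against 3.5% of all genes called lower and 2.45% higher. That call was lost after quantile normalization (1.94% of all genes) and without replicate 1 or 2 of the MES, where Myl1 lay at −0.88 and −0.89, or replicate 2 of the EPI, where it lay at −0.79. Des took its place, at −0.98, without that EPI array.

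At the OPL E11.5, Chrna1, Des and Acta1 were called lower in the EPI, by 1.44, 1.28 and 1.24. The median of all genes was itself −0.65 in this comparison, and 25.6% of all genes were called lower and 0.804% higher. Of the 9 genes, 7 lay lower in the EPI with no overlap of arrays, against 80.7% of all genes. After quantile normalization none of the 9 was called lower (1.28% of all genes), and Mstn was called higher at 0.97 (3.99% of all genes). With 1 array left out the 3 calls were kept, and another was added for Myog without EPI replicate 1 (−0.96), Myf5 without EPI replicate 3 (−0.96) or MES replicate 1 and Myl1 without EPI replicate 2 or MES replicate 3 (−0.92 and −0.94). Rank Products called none of the 9 lower at these 3 sites, where it called 0.196% of all genes lower at the OPL E11.5, 0.736% at the OE E12.5 and 0.0811% at the OE E14.5.

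**Figure D3:**
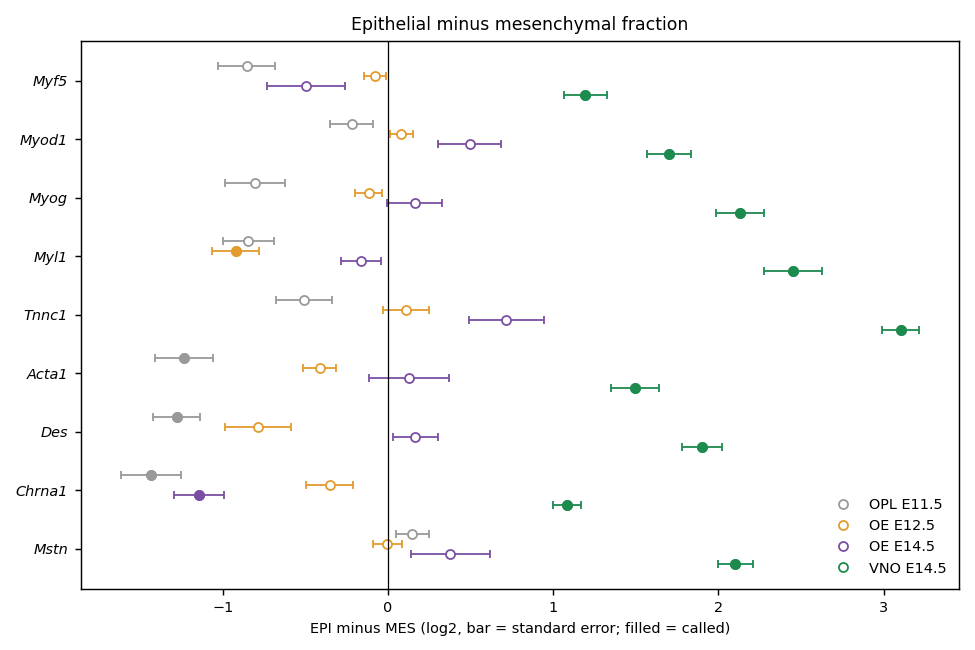
Difference of the EPI from the MES (log2) for each of the 9 genes at the 4 sites, with standard errors from limma (3 arrays against 3). Filled points were called. The VNO E14.5 points are all filled and lie between 1.08 and 3.10, while the other filled points all lie below 0.

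The comparison of the VNO with the OE at E14.5 was made within each fraction. In the EPI all 9 genes were higher in the VNO, from 1.01 for Myod1 to 2.83 for Myl1, and the arrays did not overlap for any of the 9 (32.0% of all genes were higher without overlap). By limma 5 were called: Myl1 at 2.83, Mstn at 2.18, Tnnc1 at 2.02, Chrna1 at 1.97 and Myog at 1.49, with adjusted p between 0.0287 and 0.0462. Acta1 at 1.85, Myf5 at 1.35, Des at 1.10 and Myod1 at 1.01 were not, with adjusted p between 0.064 and 0.076. Few genes of any kind were called in this comparison, 35 higher (0.236%) and 2 lower (0.0135%). Of the 35, 13 were on the muscle lists: the 5 named and Tnni1, Mymk, Smyd1, Mybph, Mylpf, Tnni2, Chrng and Chrnb1.

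These calls lie at the edge of the threshold. After quantile normalization no gene of any kind was called (0.0%) by limma and the 9, all at an unadjusted p under 0.05, lay between 0.86 and 2.62, with adjusted p of 0.0619 to 0.145. Rank Products called 5 (Myl1, Tnnc1, Chrna1, Mstn and Acta1, with 0.182% of all genes called). A single fit over the 24 arrays called all 9. That fit takes its spread from all 24 arrays, and its share of all genes is not given here. Without replicate 3 of the EPI OE, 6 were called, among 80 genes called higher. Without replicate 1 or 2 of the EPI OE or any 1 of the 3 EPI VNO arrays, none was, nor was any other gene called higher.

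In the MES none of the 9 was called between VNO and OE by limma or by Rank Products, although 6 had an unadjusted p under 0.05. Of all genes 0.682% were called higher in the VNO and 0.709% lower (0.277% and 0.426% by Rank Products). Acta1 was 0.48 higher in the VNO (adjusted p = 0.0446, limma) and Des 0.63 lower (adjusted p = 0.017, limma), both under the minimum fold. Myog lay at −0.48, Tnnc1 at −0.37, Myf5 at −0.34, Chrna1 at −0.25, Myod1 at −0.19, Myl1 at 0.21 and Mstn at 0.45.

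**Figure D4:**
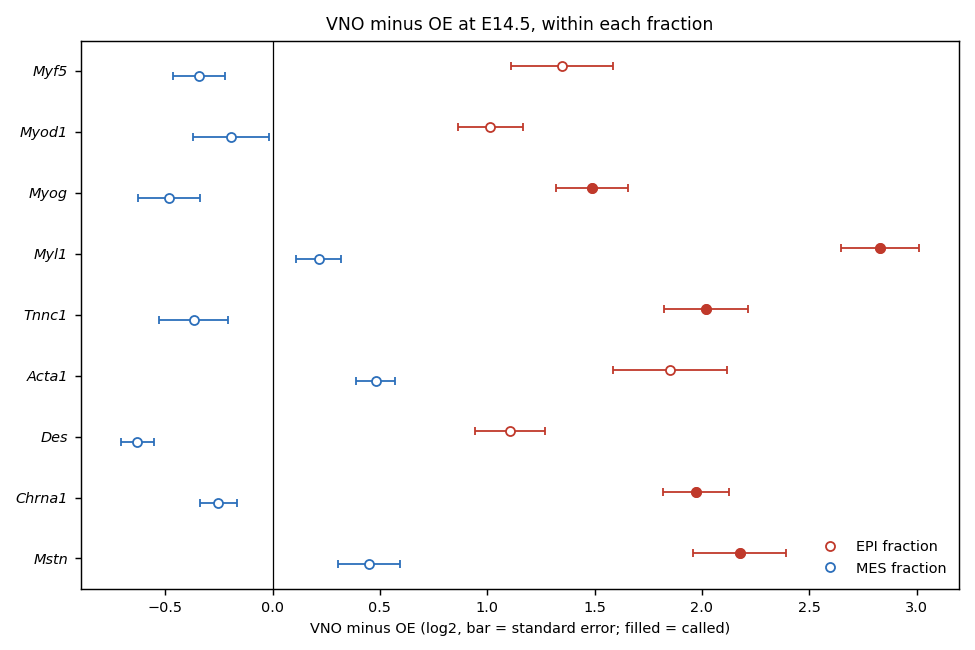
Difference of the VNO from the OE at E14.5 (log2) for each gene, in the EPI (red) and the MES (blue), with standard errors from limma (3 arrays against 3). Filled points were called. The EPI points lie between 1.01 and 2.83 and the MES points between −0.63 and 0.48, and the red and blue points of a gene are apart for all 9.

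Whether the difference between fractions itself differed between the VNO and the OE was tested as an interaction on the 12 arrays of E14.5. All 9 genes passed at an adjusted p of at most 0.05 (limma), against 4.94% of all genes in that direction. The sizes ran from 1.21 for Myod1 (standard error 0.24, adjusted p = 0.024) and 1.37 for Acta1 to 2.39 for Tnnc1 and 2.61 for Myl1 (standard error 0.22, adjusted p = 0.000477). After quantile normalization 7 of 9 passed, against 2.69% of all genes, with Myod1 at 1.03 and Acta1 at 1.09 no longer called. With 1 array left out, 7 to 9 passed. Myod1 was lost without any 1 of the 3 EPI VNO arrays or without MES OE replicate 1 or 3 (1.07 to 1.23), and Acta1 without EPI OE replicate 1, EPI VNO replicate 1 or 3, or any 1 of the 6 MES arrays (1.25 to 1.42). The fraction comparisons and the tissue comparisons share their arrays, so they are not separate evidence.

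Other genes of muscle were read from lists. Of 23 measured genes of the contractile apparatus, 6 were called higher in the EPI than in the MES at the VNO E14.5 and none lower, with a list median of 0.57 against −0.11 for all genes. Tnni1, the slow skeletal troponin I, was higher by 2.02 (8.82 against 6.80), Smyd1, a methyltransferase needed for myofibril assembly, by 1.97, Mylpf, a regulatory light chain of fast myosin, by 1.91, and Actn2, an actinin of the Z disc, by 1.89. After quantile normalization 14 of the 23 were called higher, when the median of all genes was 0.17. Of all genes, 2.74% were called higher in this comparison as deposited and 6.69% after quantile normalization. Those shares apply to the lists that follow as well.

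Of 23 genes of excitation and the neuromuscular synapse, 6 were called higher and 1 lower, with a median of 0.39. Casq2, a calcium store protein of the sarcoplasmic reticulum, was higher by 2.15, Chrng, the gamma subunit of the fetal acetylcholine receptor, by 1.19, Casq1 by 1.15 and Musk, a receptor kinase that gathers acetylcholine receptors, by 1.09. Chrne, the epsilon subunit that takes the place of gamma in the adult receptor, was lower by 0.98, at 3.75 against 4.73, and this call was lost after quantile normalization (−0.29). By that scaling 11 of the 23 were higher and none was lower.

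Of 22 genes of the lineage and of myoblast fusion, 3 were called higher, with a median of 0.26, and 5 were after quantile normalization. Mymk, the membrane protein myomaker that myoblasts need for fusion, was higher by 1.89 (8.16 against 6.27), Msc, a repressor of the basic helix-loop-helix kind found in branchial muscle precursors, by 1.40, and Inhba, an activin subunit made by many tissues, by 0.97. Pax3 and Pax7, factors of muscle precursors that neural crest also makes, were not called between fractions at the VNO. In the MES they were lower in the VNO than in the OE, by 1.63 and 1.65. The interaction called 13, 11 and 6 genes of these lists higher and none lower, against 4.94% of all genes called higher. After quantile normalization it called 8, 7 and 4 higher, against 2.69% of all genes, and 1 lineage gene lower.

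Markers of other tissues moved at the same site, and their part in the muscle result was not tested. Of 12 measured genes of bone and cartilage, 4 were called higher in the EPI VNO than in the MES VNO: Ibsp, a matrix protein of bone, by 4.02, Phex by 2.20, Sp7, a factor of osteoblasts, by 1.75, and Alpl. Hapln1, a cartilage link protein, was lower by 1.43, and the list median was −0.55. Their summed level was 13.22 to 13.25 in the EPI VNO E14.5, 13.00 to 13.14 in the MES VNO, 13.19 to 13.23 in the MES OE and 12.35 to 13.47 in the EPI OE. Between VNO and OE in the MES, Ibsp, Phex, Sp7 and Alpl were lower in the VNO, where none of the 9 muscle genes was called.

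Of 6 measured tendon genes, Thbs4 was called higher by 1.62 and Kera by 1.33, and Egr1, a factor that many stimuli induce, lower by 1.08. After quantile normalization Tnmd was called higher too. Of 17 epithelial genes, the keratins Krt17, Krt14, Krt5 and Krt15 and the claudin Cldn4 were higher, by 1.99, 1.75 and 1.50 for the first 3, and Cldn7 was lower. Summed, the epithelial genes lay at 13.80 to 13.88 in the EPI VNO and at 13.04 to 13.23 in the MES VNO. Of 13 genes of smooth muscle and pericytes, only Acta2 was called, and the list median was −0.22. After quantile normalization 3 of them were called higher (Actg2, Acta2 and Tagln), with a list median of 0.20 against 0.17 for all genes. Their summed level was 12.45 to 12.55 in the EPI VNO and 12.09 to 12.31 in the MES VNO.

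Of 9 heart genes, none was called by limma or Rank Products and 5 had an unadjusted p under 0.05, with a median of −0.27 (2 were called higher after quantile normalization), and the summed level of 8.91 to 9.01 in the EPI VNO lay inside the 8.87 to 9.23 of the MES VNO. Of 8 genes of Schwann cells and motor nerves, Isl1 was higher by 0.99 and Fabp7 lower by 2.34. Summed levels in the EPI VNO and the MES VNO were 14.77 to 14.82 and 14.67 to 14.76 for the 13 mesenchymal genes, and 11.01 to 11.13 and 10.73 to 10.82 for the tendon genes. For the 14 neuronal genes they were 12.85 to 12.87 and 13.23 to 13.42, so that the muscle and neuronal sums ran in opposite directions between these fractions. No detection limit can be given, since background signal is not among the values used here.

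**Figure D5:**
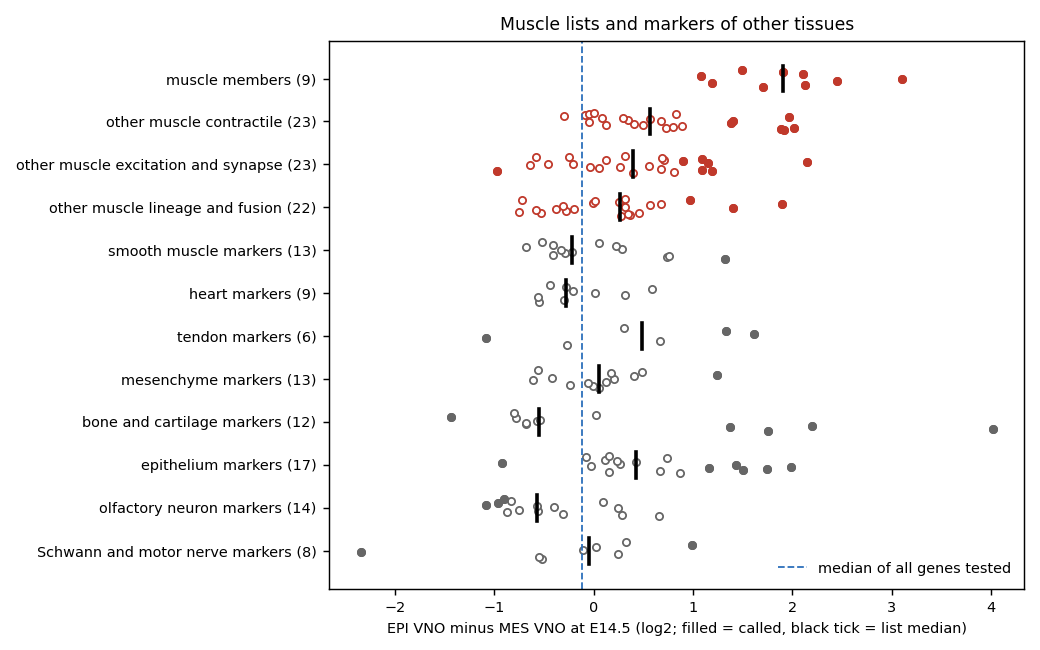
Difference of the EPI VNO from the MES VNO at E14.5 (log2) for each measured gene of 12 lists, with muscle lists in red and markers of other tissues in grey (number of measured genes in brackets). Filled points were called, black ticks are list medians and the dashed line is the median of all genes tested, −0.11. The 9 members are all filled with a median of 1.90, and the other muscle lists have medians of 0.57, 0.39 and 0.26.

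Levels over developmental time were compared within each fraction, and the rises of the fractions were not tested against each other. In the EPI, from the OPL E11.5 to the VNO E14.5 all 9 genes rose, by 1.82 for Myf5 to 5.08 for Tnnc1 (20.5% of all genes were called higher, 3.27% by Rank Products, which called the 9 too, and the median of all genes was 0.45). From the OPL E11.5 to the OE E14.5, 7 rose: Tnnc1 by 3.06 (standard error 0.24, adjusted p = 0.00096, limma), Acta1 by 2.14, Myog by 2.09, Des by 1.67, Myod1 by 1.44, Myl1 by 1.15 and Chrna1 by 1.06 (14.0% of all genes, with a median of 0.32). Myf5 at 0.47 and Mstn, at 4.45 in both groups, were not called, and Chrna1 was lost without EPI OPL E11.5 replicate 3 (0.89). Rank Products called 3 of these, Myog, Tnnc1 and Acta1, against 2.41% of all genes. The comparisons with the OPL E11.5 share its 3 arrays.

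In the EPI, 6 genes rose from the OE E12.5 to the OE E14.5 (3.17% of all genes): Tnnc1 by 2.36, Des by 1.64, Myl1 by 1.32, Acta1 by 1.23, Myog by 1.20 and Myod1 by 0.95. Myod1 was lost without EPI OE E14.5 replicate 3 (0.82) and by Rank Products, which called the other 5 (1.98% of all genes). The median of all genes was −0.19 in this comparison, and after quantile normalization Chrna1 at 0.91 and Mstn at 1.14 were called too, 8 genes against 10.2% of all genes. From E11.5 to E12.5 only Chrna1 at 1.00 and Acta1 at 0.91 were called higher, against 17.6% of all genes called higher and 0.358% lower, with a median of all genes of 0.54. After quantile normalization none was called higher (1.4% of all genes), and Mstn was called lower at −1.04 (1.82% of all genes). Rank Products called none (0.263% of all genes were higher). With 1 array left out 1 to 3 were called. Chrna1 was lost without EPI OPL E11.5 replicate 3 (0.83) or EPI OE E12.5 replicate 1 (0.87). Acta1 was lost without EPI OPL E11.5 replicate 1 or 2 (0.80 and 0.83) or EPI OE E12.5 replicate 1 or 2 (0.89 and 0.86), and Myog was gained without EPI OPL E11.5 replicate 1 (1.05) or EPI OE E12.5 replicate 1 or 3 (0.94 and 0.91).

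In the MES, 2 of the 9 genes rose in each comparison with E14.5. From the OPL E11.5 to the OE E14.5, Tnnc1 rose by 1.83 and Myog by 1.13 (5.06% of all genes, with a median of −0.10), and from the OPL E11.5 to the VNO E14.5, Tnnc1 rose by 1.46 and Acta1 by 1.26 (6.35% of all genes, with a median of −0.07). Between the OE E12.5 and the OE E14.5, Tnnc1 rose by 1.75 and Myog by 0.92 (2.52% of all genes, with a median of −0.15), while Chrna1, at 0.85, was under the minimum fold. After quantile normalization Chrna1 was called there too, at 0.91, when 469 of 14804 genes were called higher. Rank Products called 1 of the 9 in each of these 3 comparisons, against 3.04%, 2.91% and 1.87% of all genes. There Myog was lost without MES OE E14.5 replicate 1 (0.88) or 3 (0.89), and Chrna1 was gained without MES OE E12.5 replicate 2 or MES OE E14.5 replicate 1 (0.92 and 0.91). From E11.5 to E12.5 none of the 9 was called by limma or Rank Products, with 1 gene, Des at −0.46, at an unadjusted p under 0.05, against 1.44% of all genes called higher and 0.162% lower (1.02% and 0.0878% by Rank Products). Tnnc1 was thus called as risen by E14.5 in both fractions and both tissues.

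The likeness of the genes across the 24 arrays is given as a description. The points share tissues and ages, and 3 arrays form 1 group. Over the 36 pairs of the 9 genes, Pearson's r ran from 0.614 (Chrna1 with Mstn) to 0.967 (Myod1 with Tnnc1), with a median of 0.841. With Myog, r was 0.964 for Myod1 and 0.953 for Tnnc1, and 0.748 for Mstn and 0.770 for Myf5, the lowest 2, while the median of all 14804 genes was 0.119. The 10 other genes most like Myog were Slc5a8 (0.964), Krt17, Actn2, Tmprss13, Niban1, Tnni1, Casq2, Car3, Mymk and Sytl4 (0.939). Of these, 4 were on the muscle lists, and 7 were again among the 10 when arrays were centred on their medians. Krt17 is a keratin of stratified epithelium.

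Loss of Dlx5 was examined on the other 6 arrays. Dlx5 itself read 10.94, 11.03 and 10.98 on the wild-type arrays and 10.24, 10.30 and 10.17 on the mutant arrays, which did not overlap. Whether its probes lie in the part that the null allele replaces is not given in the sources used here. None of the 9 muscle genes was called by limma or by Rank Products, and none had an unadjusted p under 0.05. Over all genes limma called 1, as lower (0.00673%), and none higher (0.0%), and Rank Products called 0.168% higher and 0.585% lower. The differences of the 9 ran from −0.23 for Des to 0.20 for Myog, with standard errors of 0.09 to 0.16, and the wild-type and mutant arrays overlapped for all 9. Myod1 read 7.86, 7.62 and 7.59 in the wild type and 7.90, 7.66 and 7.67 in the mutant, and Myf5 7.03, 6.94 and 6.93 against 7.06, 6.85 and 7.10. The medians of these 6 arrays differed from those of the time course, so their levels are not set against it.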

How the data were processed

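Tissue of the 10 groups was profiled on 3 arrays each. The authors extracted RNA with Trizol, depleted ribosomal RNA, hybridized it and summarised probes by RMA, which the methods say was run within Bioconductor for each pair of groups. The submitters' notes name RMA and mm9. The deposited values are on the log2 scale, in 1 table of 23339 clusters, of which 23238 have values on the time course and 23332 on the Dlx5 arrays. The medians of these sets differ, so no comparison crosses them. Of the clusters, 14996 carry 1 gene symbol, 1019 several and 7324 none. Counts run over genes with 1 symbol, each on its cluster of highest mean.

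Pairs of groups were compared with limma 3.58.1 (lmFit, eBayes) in R 4.3.3, two-sided, on deposited values, since pairwise RMA runs could not be remade. Rank Products used 100 permutations, at an estimated false share no higher than 0.05, with that fold minimum kept. All genes listed were named, and of other lists the up to 4 called genes of largest change, the other called genes being named where a count is discussed. The code was tested on simulated data. The members and lists were chosen with earlier results of these data known, so no set test was run. Alternatives were quantile normalization, median centring, an intensity trend, 1 fit over 24 arrays, a replicate block, clusters above the median alone, averaging of all clusters of a gene, no minimum fold, subtraction of 0.15, 0.1 or 0.2 of the MES from the EPI, and leaving out each array. Replicate numbers were not taken to pair the arrays: in none of 14 comparisons did the deviations of every same-numbered pair correlate at an r over 0.1. With 3 arrays a group, their number sets the precision. The paper's Gene Ontology, qPCR and zebrafish work was not repeated.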

Additional observations from a re-analysis of the deposited data

Results flagged for a closer look

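All 9 muscle genes were picked out because the difference between EPI and MES at E14.5 differed between the VNO and the OE, by limma's interaction on 12 arrays. The EPI minus MES difference was larger at the VNO by 1.21 (log2) for Myod1, 1.97 for Myog, 1.69 for Myf5, 2.61 for Myl1, 2.39 for Tnnc1, 1.37 for Acta1, 1.73 for Des, 2.23 for Chrna1 and 1.73 for Mstn. For Chrna1 the sign also turned, from −1.14 at the OE to 1.08 at the VNO, although the first was −0.33 and not called after quantile normalization. Keratins and bone genes were also higher in the EPI VNO than in the MES VNO, and their part in this was not tested. Groups of 3 arrays were not searched for outliers.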

How the results depend on the processing

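The calls of the 9 genes in the EPI over the MES at the VNO E14.5 and in the EPI VNO E14.5 over the OPL E11.5 all held after quantile normalization, by Rank Products and with any 1 array left out. In the interaction 7 to 9 were called with 1 array left out and 7 after quantile normalization, and Rank Products was not run for it. After quantile normalization the members called lower in the EPI than in the MES were 0 at the OPL E11.5 (3 as deposited), 0 at the OE E12.5 (1) and 0 at the OE E14.5 (1), and those called higher were 1 at the OPL E11.5 and 3 at the OE E14.5 (0 and 0). For the EPI VNO over the EPI OE it gave 0 (5), and for the EPI from E11.5 to E12.5 it gave 0 higher (2) and 1 lower (0). Median centring gave 0 lower at these 3 sites, where 211, 341 and 151 of all 14804 genes were lower. It gave 2 higher at the OE E14.5, where 1104 of all genes were higher. For the EPI VNO over the EPI OE it gave 0 (0 of all genes). For the EPI from E11.5 to E12.5 it gave 0 higher (201 of all genes). These scalings remove shifts of the array medians by construction.

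The replicate block left 0 of 5 calls for the EPI VNO over the EPI OE (adjusted p of 0.171 to 0.192, limma) and moved no other count by over 1.5 times. The numbers were not taken to pair the arrays (correlations of −0.18 to 0.27). Whether arrays of 1 number share a batch, and why these calls were lost, was not tested. A single fit over 24 arrays gave 9 there, with its share of all genes not given here. Rank Products gave 0 lower at the OPL E11.5, the OE E12.5 and the OE E14.5, 0 for the EPI from E11.5 to E12.5, 3 for the EPI OE E14.5 over the OPL E11.5 (7), and 1 each (2) for the MES OE E14.5 over the OE E12.5, the MES OE E14.5 over the OPL E11.5 and the MES VNO E14.5 over the OPL E11.5.

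With no minimum fold change the members called lower in the EPI than in the MES were 7 at the OPL E11.5 (77.6% of all genes) and 3 at the OE E12.5 (37.9%), and 1 was called higher at the OE E14.5 (5.8%). That setting also gave 1 higher and 1 lower for the MES VNO over the MES OE (3.95% and 2.72% of all genes), 6 higher and 1 lower for the EPI from E11.5 to E12.5 (65.1% and 2.5%), 1 lower for the MES from E11.5 to E12.5 (1.96%), 7 higher for the MES OE from E12.5 to E14.5 (13.1%), 6 higher for the MES OE E14.5 over the OPL E11.5 (18.0%), and 6 higher and 1 lower for the MES VNO E14.5 over the OPL E11.5 (18.2% and 28.7%). Subtraction of 0.15 or 0.2 of the MES gave 4 higher for the EPI from E11.5 to E12.5, with its share of all genes not given here. Restriction to clusters above the median left 1 to 5 of the 9 members to test where it left any. It kept clusters by their mean over the compared arrays, so a member high in 1 group could be kept through that group. Its counts are therefore no support for the calls, and its shares of all genes are not given here. For the EPI VNO over the EPI OE, 5 of 5 tested were called (Myod1, Des and Acta1 among them). The count was 3 of 3 in the interaction and in the EPI over the MES at the VNO E14.5. It was also 3 of 3 for the EPI VNO E14.5 over the OPL E11.5. For the EPI OE E14.5 it was 1 of 1 over the OE E12.5 and 1 of 1 over the OPL E11.5. For the MES VNO E14.5 it was 1 of 1 over the OPL E11.5 and 0 of 1 over the MES OE. At the OE E14.5, 0 of 3 were called lower.

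With 1 array left out, the counts were 3 to 4 lower at the OPL E11.5, 0 to 1 lower at the OE E12.5, 0 to 1 higher and 1 lower at the OE E14.5, 0 to 6 for the EPI VNO over the EPI OE, 1 to 3 for the EPI from E11.5 to E12.5, 5 to 6 for the EPI OE from E12.5 to E14.5, 6 to 7 for the EPI OE E14.5 over the OPL E11.5, 1 to 3 for the MES OE from E12.5 to E14.5, and 2 in both comparisons of the MES E14.5 with the OPL E11.5. The member added at the OE E14.5 was Tnnc1, at 0.91 without EPI OE E14.5 replicate 1. Of 2073 values of single members under an alternative, 57 had another sign than the value as deposited, 26 of them under quantile normalization or median centring. None of the 57 was called under either setting. Values that lie near the median of all genes have no settled direction.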
